A study of Rattus norvegicus with 52 samples.

Results

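Basal cells of the rat mammary gland were compared with luminal cells labelled as mature, both sorted from virgin ACI females at 9 weeks of age. The comparison takes every 9-week library with either of these labels: 4 basal and 4 mature luminal libraries, 8 of the 52 samples of the series. Each cell type has 2 libraries from Cdkn1b+/+ rats and 2 from Cdkn1b-/- rats, numbered 1 and 2, and a basal and a luminal library of the same genotype and number were taken as a pair, which gives 4 pairs. Cdkn1b encodes p27, an inhibitor of cyclin-dependent kinases, and the deletion is carried by every cell of the animal: according to the study's methods it was made by CRISPR-Cas9 in the first coding exon in Sprague-Dawley zygotes and was then crossed onto ACI, an inbred strain prone to estrogen-induced mammary tumors. More than 1 deletion was made, and the labels do not give which one, or which backcross generation, a library carries. Basal cells were gated as Cd24+ Cd29HIGH, a gate that holds myoepithelial cells and any basal stem cells, and mature luminal cells as Cd24+ Cd29LOW Cd49b- PNA-, where Cd49b is an integrin and PNA a lectin that mark luminal progenitors. No label says whether the libraries of a pair come from 1 rat. The pair is a term of the test, so p-values measure the spread of the differences within these 4 pairs. Spread between libraries of a cell type that both libraries of a pair share does not enter them.

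The mammary duct has an inner luminal layer and an outer basal layer. Luminal cells are polarised around the lumen and sealed by tight junctions, and they include cells that sense estrogen and progesterone as well as cells of the alveolar lineage, which make milk under prolactin through Stat5. Basal cells lie on the basement membrane, which they help to build, and most of them are myoepithelial: they contract like smooth muscle when oxytocin acts on them, keep keratins 5 and 14, and depend on the transcription factor p63. The layers also signal to each other, with neuregulins, Wnts, Notch ligands and FGFs among the known messengers.

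Expression is given as CPM, the usual unit that sets a gene's reads against its library's total, scaled by edgeR's TMM factors, from poly(A) RNA libraries made with a low-input kit. Values of 4 libraries are always listed in the order Cdkn1b+/+ 1, Cdkn1b+/+ 2, Cdkn1b-/- 1, Cdkn1b-/- 2. Log2 fold changes are basal over mature luminal and come with their SE, and adjusted p-values are from edgeR's quasi-likelihood test with the pair as a block and Benjamini-Hochberg adjustment over all genes tested. A gene is called higher or lower in basal cells when its adjusted p is under 0.05. These are bulk libraries, in which fewer cells of a type and less RNA per cell cannot be told apart.

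The libraries held 21545344 to 26392587 reads on genes. The first principal component held 63.7% of the variance and separated the cell types. Cdkn1b itself was at 2.25 to 4.39 CPM in the 4 Cdkn1b-/- libraries and at 6.57 to 15.6 CPM in the 4 Cdkn1b+/+ libraries, so the genotypes did not overlap. It was not called between the cell types (log2 fold change 0.54, SE 0.24, adjusted p = 0.0977), with pair differences of 0.71, 0.50, 0.94 and -0.03. In the 4-week libraries described below it was called higher in basal cells (log2 fold change 0.70, SE 0.24, adjusted p = 0.0313, edgeR). Among the genes of the sort, Itgb1 went the way of the gates. Itgb1, which encodes Cd29, had 852, 797, 895 and 678 CPM in basal and 290.2, 429, 523 and 322 CPM in luminal libraries (log2 fold change 1.07, SE 0.19, adjusted p = 0.00249). Both gates are positive for Cd24, whose gene had 248, 297, 375 and 284 CPM in basal and 1101, 1412, 1156 and 951 CPM in luminal libraries (log2 fold change -1.94, SE 0.19, adjusted p = 0.000124). Pecam1, the Cd31 antigen used to gate out endothelial cells, reached 17.3 to 32.0 CPM in basal and 13.8 to 24.4 CPM in luminal libraries, without a called difference (adjusted p = 0.125), and Ptprc, the Cd45 antigen of blood cells, stayed at or below 1.79 CPM everywhere.

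All 4 basal libraries carried the markers of their lineage, whereas markers of the luminal libraries did not all go the way of their label. Kit and Elf5 mark luminal progenitors and alveolar precursors, and in the Cd49b- PNA- libraries Kit lay between 51.1 and 309 CPM with a median of 188 CPM, beside medians of 163 CPM in the Cd49b+ and 162 CPM in the PNA+ progenitor libraries of the same age, scaled over all 16 libraries. Elf5 had a median of 92.0 CPM in the mature luminal libraries against 43.4 and 54.9 CPM in those progenitors, and Cd14 had 1046 CPM against 548 and 719 CPM. Aldh1a3, another progenitor marker, went the way of the label at the median, with 4.66 CPM against 6.94 and 12.5 CPM, within a range of 1.63 to 46.1 CPM in the mature luminal libraries. Some hormone receptor genes that mark hormone-sensing luminal cells were lower than in the progenitors at the median: Esr1 was at 7.66 CPM against 12.6 and 15.8 CPM, Pgr at 15.7 CPM against 34.8 and 44.5 CPM, and Prlr at 33.0 CPM against 71.6 and 81.3 CPM. These medians of 4 libraries each are a description and were not tested. The libraries are called mature luminal below only as the name of their gate.

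**Figure D1:**
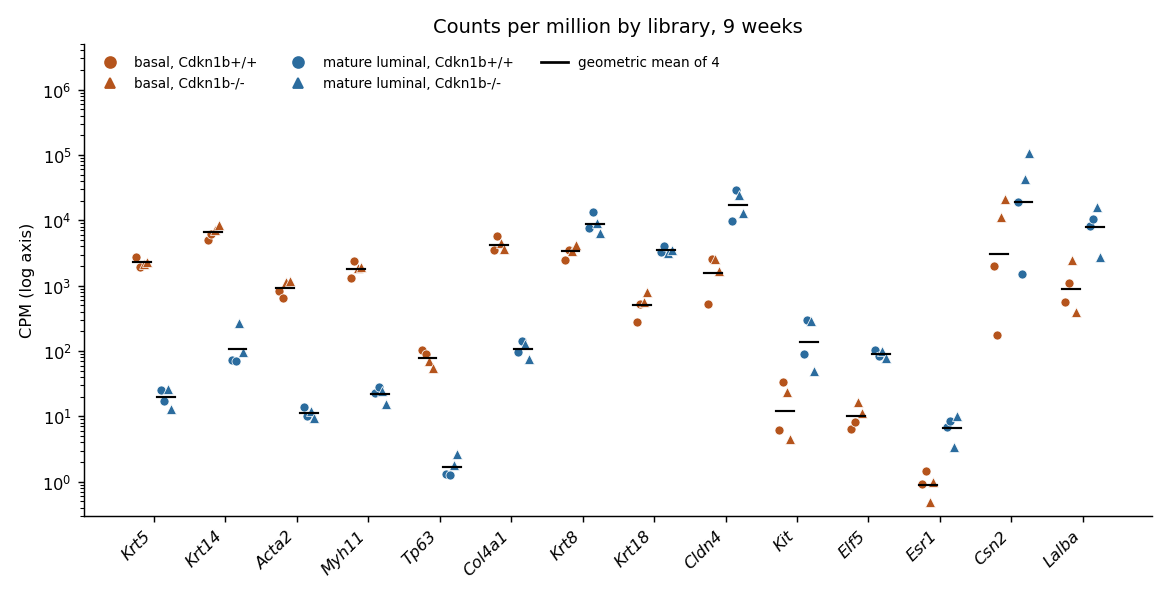
CPM on a log axis of 14 marker genes in each of the 8 libraries, with circles for Cdkn1b+/+, triangles for Cdkn1b-/-, and bars at the geometric mean of 4 libraries. The basal markers from Krt5 to Col4a1 lie in separate bands for the cell types, whereas Csn2 spreads over 177 to 21470 CPM in basal and 1496 to 108830 CPM in luminal libraries and overlaps.

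The cell types differed at a large share of the genes that could be tested. Of 11687 genes, 5259 were called, which is 45% of all tested, with 2749 higher (23.5%) and 2510 lower (21.5%) in basal cells. The counts of called genes in each list below are to be read beside these shares. In 5143 of the called genes all 4 pairs went the same way, beside 6873 of all genes tested (58.8%). The calls rest on these same pairs, so that count is a description. In 3893 genes (33.3% of all tested) the 4 basal and the 4 luminal libraries did not overlap. The median log2 fold change over all genes tested was -0.01, near 0 as the scaling sets it.

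The sizes of the changes were lopsided although their numbers were not. Among called genes, 537 were above a log2 fold change of 3 and 123 below -3, and beyond 4 there were 272 against 1. Among the 4340 genes with a mean log2 CPM above 5, the fold changes ran from -3.52 (Kit) to 7.30 (Col2a1), and 148 genes rose further than Kit fell. The 50 genes of that level with the lowest fold changes kept, at the median, 7.17%, 10.7%, 12.8% and 14.3% of the paired luminal level in the 4 basal libraries, and the 50 with the highest kept 1.52%, 1.39%, 1.52% and 0.98% of the basal level in the luminal libraries. Both sets were picked for this contrast, so these values are a description. In the other sets of the series both ends lay further out: among genes of mean log2 CPM above 5, log2 fold changes ran from -7.53 to 9.79 at 4 weeks and from -11.5 to 9.63 in the E2 experiment.

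**Figure D2:**
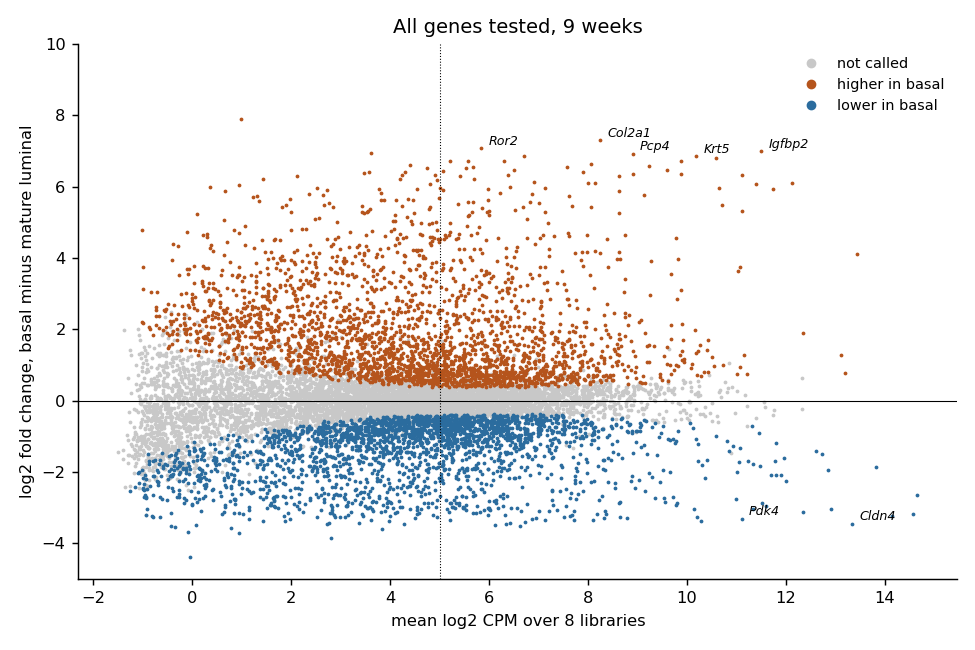
Log2 fold change (basal minus mature luminal) against mean log2 CPM for each of the 11687 genes tested, with called genes in color and a dotted line at the mean log2 CPM of 5 above which single genes were named. Higher genes reach 7.30 right of that line and lower genes stop at -3.52.

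Among genes of mean log2 CPM above 5 without overlap between the cell types, the 12 with the largest rise in basal cells held smooth muscle, cartilage, keratin and signalling genes. Col2a1, the fibrillar collagen typical of cartilage, led them with 439, 828, 513 and 626 CPM in basal and 3.67, 6.23, 2.97 and 2.69 CPM in luminal libraries (log2 fold change 7.30, SE 0.25, adjusted p = 2.29e-06). Igfbp2, a secreted binder of insulin-like growth factors, had 5765, 3539.9, 5626 and 8110.5 CPM in basal and 61.9, 30.1, 52.9 and 35.2 CPM in luminal libraries (log2 fold change 6.99, SE 0.35, adjusted p = 6.23e-06). Its basal level was 128 times the luminal one. Ror2, a receptor tyrosine kinase that binds Wnt5a, had 119, 136, 108 and 90.9 CPM against 0.787, 1.47, 0.574 and 0.627 CPM (log2 fold change 7.07, SE 0.23, adjusted p = 2.16e-06). Pcp4, a small calmodulin-binding protein, had 415, 747, 1119.7 and 1513 CPM against 3.45, 7.09, 11.5 and 8.60 CPM (log2 fold change 6.92, SE 0.25, adjusted p = 2.5e-06). Lack of overlap between the cell types was a condition for naming these 4 genes, and large pair differences follow from their ranking. As a description, no pair differed by less than 6.46 on the log2 scale.

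Il17b, a cytokine of the interleukin-17 family, varied widely between libraries of a cell type. Its basal levels were 11.9, 403, 156 and 255 CPM and its luminal levels 0.350, 3.81, 1.34 and 1.16 CPM (log2 fold change 6.84, SE 0.37, adjusted p = 8.27e-06). The first Cdkn1b+/+ basal library stood far below the other 3, and its luminal partner was also the lowest of its group. The pair differences were 4.79, 6.69, 6.78 and 7.68, with an SD of 1.21. The remaining genes of the 12 were Krt5, the calponin gene Cnn1 (6.81), the smooth muscle actin gene Actg2 (6.73), the Notch-pathway relative Dlk2 (6.72), the desmosomal cadherin gene Dsc3 (6.72), the G protein subunit gene Gng13 (6.71) and Pdpn, which encodes the membrane glycoprotein podoplanin (6.65), where the values are log2 fold changes.

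**Figure D3:**
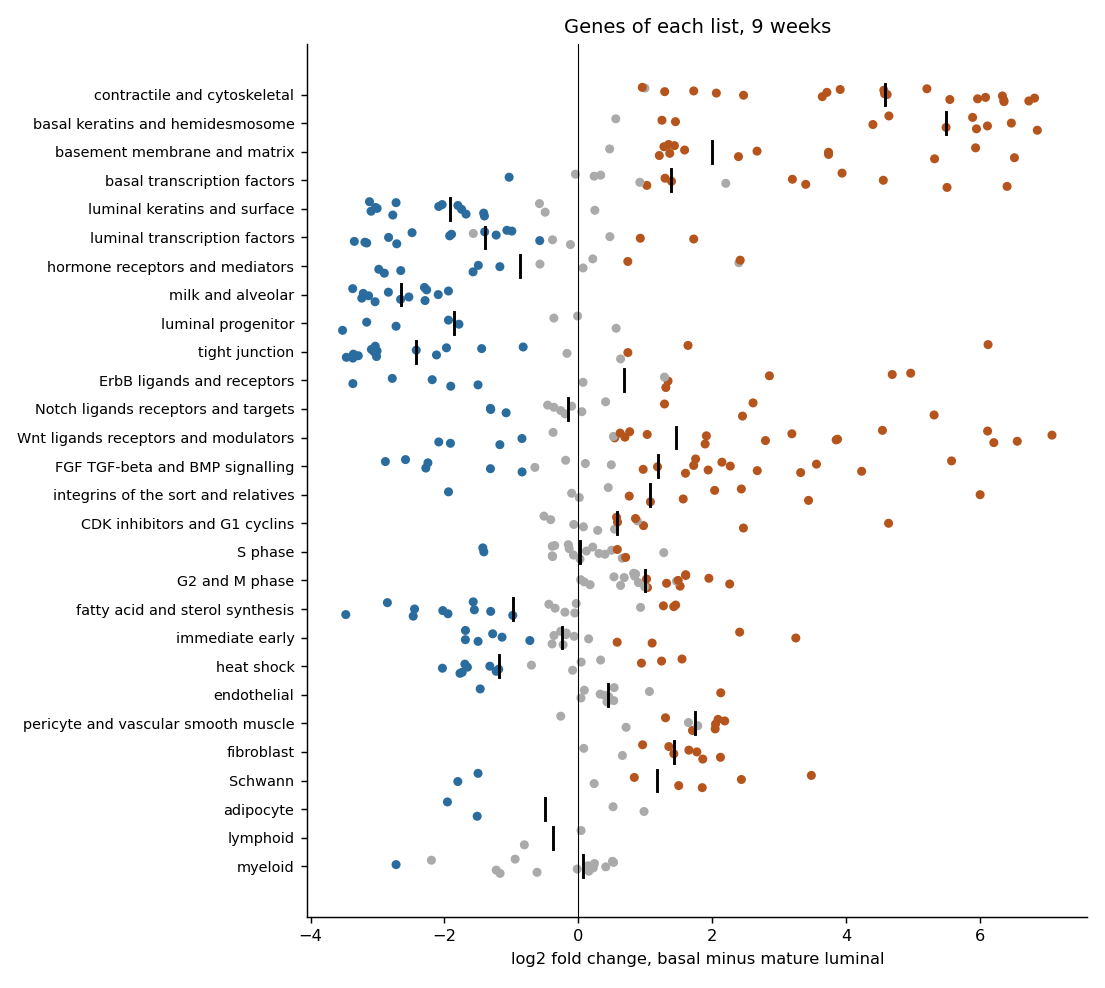
Log2 fold change (basal minus mature luminal) of each tested gene in 28 gene lists, colored where called, with a bar at each list's median. Contractile and basal keratin genes lie right of 0 with medians of 4.57 and 5.49, and milk and tight junction genes left of it with medians of -2.66 and -2.42.

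The contractile machinery of smooth muscle was carried by the basal libraries almost as a whole. Of 21 tested genes of actin-based contraction and its regulators, 20 were higher in basal cells and none was lower, with a median log2 fold change of 4.57 beside -0.01 over all genes. Acta2, the smooth muscle actin used to stain myoepithelium, had 837, 656, 1150 and 1159 CPM in basal and 14.0, 10.0, 12.2 and 9.36 CPM in luminal libraries (log2 fold change 6.36, SE 0.27, adjusted p = 3.28e-06). Myh11, the smooth muscle myosin heavy chain, had 1317, 2352, 1848 and 1923 CPM against 22.9, 28.1, 24.2 and 15.7 CPM (log2 fold change 6.35, SE 0.27, adjusted p = 3.31e-06). Tagln, an actin cross-linker, had 2893 to 7328 CPM in basal and 62.7 to 86.2 CPM in luminal libraries (log2 fold change 6.08, SE 0.33, adjusted p = 8.72e-06).

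The kinase that starts smooth muscle contraction and the hormone receptor that triggers it went along. Mylk, the myosin light chain kinase gene, had 187, 187, 296 and 333 CPM in basal and 5.24, 5.28, 6.51 and 3.90 CPM in luminal libraries (log2 fold change 5.55, SE 0.27, adjusted p = 5.19e-06). Oxtr, the oxytocin receptor gene, had 78.8, 233, 53.4 and 132 CPM against 3.54, 6.62, 1.82 and 1.48 CPM (log2 fold change 5.20, SE 0.33, adjusted p = 1.53e-05). In basal cells Oxtr was higher in both libraries numbered 2 than in both numbered 1, and in luminal cells only the Cdkn1b+/+ libraries kept that order. Vim, an intermediate filament of mesenchymal and myoepithelial cells, was higher in basal cells (log2 fold change 3.91, SE 0.26, adjusted p = 1.69e-05), and so was Des, the muscle filament desmin, with a wider spread (log2 fold change 2.06, SE 0.56, adjusted p = 0.018). The pair differences of Des were 0.63 and 0.80 in the Cdkn1b+/+ pairs and 3.09 and 3.75 in the Cdkn1b-/- pairs. In edgeR's test of cell type by genotype its adjusted p was 0.158. Myocd, the coactivator that switches on smooth muscle genes with Srf, was the exception, at 1.61 to 2.98 CPM in basal and 0.574 to 1.92 CPM in luminal libraries (log2 fold change 0.99, SE 0.49, adjusted p = 0.132).

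Srf, the factor that binds CArG boxes in smooth muscle and immediate early genes, was moderately higher in basal cells, with 68.2, 66.9, 49.3 and 49.9 CPM against 30.4, 52.6, 21.5 and 23.2 CPM (log2 fold change 0.95, SE 0.18, adjusted p = 0.00344). Among the 16 contractile genes with a promoter in the RefSeq table of rat build GRCr8, the only one with a CArG box in the 250 bases before its start was Srf itself, with 2 such boxes. The share of all 27457 genes in that table with a CArG box in this window is 1.62%, and it was 1.87% of the matched genes higher in basal cells and 0.953% of those lower. The sequence is shown because it carries both boxes (capitals) in the 250 bases at chr9:21923826-21924075 on the plus strand of GRCr8, beginning 81 and 61 bases before the start. Both strands were searched, a match describes letters and not a bound site, and the build is not the rn6 of the counts.
Srf: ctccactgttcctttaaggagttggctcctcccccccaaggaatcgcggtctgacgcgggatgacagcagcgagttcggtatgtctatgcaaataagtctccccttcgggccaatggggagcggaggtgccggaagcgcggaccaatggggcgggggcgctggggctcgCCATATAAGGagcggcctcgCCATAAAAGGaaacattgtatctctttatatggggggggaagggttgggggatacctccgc

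Keratins of the basal layer and parts of the hemidesmosome, which anchors basal cells to the basement membrane, rose together. Of 11 tested genes of this list, 10 were higher in basal cells (median log2 fold change 5.49). Krt5 had 2767, 1958, 2168 and 2325 CPM in basal and 25.5, 17.4, 26.6 and 12.8 CPM in luminal libraries (log2 fold change 6.85, SE 0.29, adjusted p = 3.31e-06). Krt14, its partner, had 5081, 6256, 7022 and 8478 CPM against 74.0, 69.6, 270.3 and 98.3 CPM (log2 fold change 5.94, SE 0.41, adjusted p = 2.17e-05). The groups were far apart for both, though Krt14 was raised in the first Cdkn1b-/- luminal library over its 3 fellows. Krt17 (log2 fold change 6.11, SE 0.31, adjusted p = 6.59e-06) and Krt15 (log2 fold change 5.49, SE 0.24, adjusted p = 4e-06) were also higher in basal cells, and Krt17 was at 11866 and 12641 CPM in the Cdkn1b-/- basal libraries beside 4277 and 6560 CPM in the Cdkn1b+/+ ones.

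In the hemidesmosome, genes of its collagen and of laminin-332 differed far more than those of its integrin. Col17a1, its transmembrane collagen, had 1604, 1796, 1489.5 and 1232 CPM in basal and 10.5, 7.05, 18.3 and 73.7 CPM in luminal libraries (log2 fold change 6.47, SE 0.70, adjusted p = 0.000203). Lamb3, a chain of laminin-332, was higher in basal cells by a log2 fold change of 5.89 (SE 0.34, adjusted p = 1.12e-05). Itga6 was higher by 1.25 (SE 0.22, adjusted p = 0.00247). Itgb4, the other chain of that integrin, was the one gene of the list that was not called, at 331 to 506 CPM in basal and 147 to 487 CPM in luminal libraries (log2 fold change 0.56, SE 0.20, adjusted p = 0.0567).

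Of 14 tested genes of the basement membrane and matrix, 13 were higher in basal cells (median 1.99) and none was lower; without the pair as a block the count was 8. Col4a1, a chain of the collagen network of every basement membrane, had 3543, 5739, 4475 and 3621 CPM in basal and 97.7, 141, 126 and 74.6 CPM in luminal libraries (log2 fold change 5.32, SE 0.24, adjusted p = 4.2e-06). Lama1, a laminin chain, had 82.5, 139, 80.5 and 65.8 CPM against 1.14, 1.82, 0.622 and 0.582 CPM (log2 fold change 6.51, SE 0.21, adjusted p = 2.16e-06). Col7a1, which forms the anchoring fibrils of stratified epithelia, had 103, 185, 104 and 104 CPM against 1.57, 3.11, 1.87 and 1.61 CPM (log2 fold change 5.93, SE 0.16, adjusted p = 2.16e-06), with the second Cdkn1b+/+ basal library above 3 that lay within 103 to 104 CPM. Sparc, a collagen-binding matrix protein also made by fibroblasts, had 2492 to 5363 CPM in basal and 158 to 480 CPM in luminal libraries (log2 fold change 3.74, SE 0.39, adjusted p = 0.00017). Tnc, tenascin C, was not called (log2 fold change 0.47, SE 0.37, adjusted p = 0.338).

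Of 15 tested transcription factors associated with basal identity or mesenchymal programs, 9 were higher in basal cells and 1 was lower, with a median of 1.39. Tp63, which encodes p63, had 105, 91.0, 69.9 and 55.6 CPM in basal and 1.31, 1.25, 1.82 and 2.64 CPM in luminal libraries (log2 fold change 5.50, SE 0.35, adjusted p = 1.52e-05). Snai2, the Slug repressor of epithelial genes, had 63.3, 28.0, 31.5 and 31.0 CPM against 0.787, 0.130, 0.144 and 0.851 CPM (log2 fold change 6.40, SE 0.41, adjusted p = 1.52e-05), highest in the first Cdkn1b+/+ basal library. Id4, a helix-loop-helix inhibitor found in mammary basal cells, had 281, 234, 166 and 150.2 CPM against 13.0, 11.3, 6.03 and 6.05 CPM (log2 fold change 4.55, SE 0.16, adjusted p = 2.5e-06). These 3 genes did not overlap between the cell types. Twist1 (log2 fold change 3.39, SE 0.22, adjusted p = 1.7e-05), Tbx2 (log2 fold change 3.94, SE 0.47, adjusted p = 0.000341) and Egr2 (log2 fold change 3.20, SE 0.40, adjusted p = 0.000448) were higher as well. Sox9 went the other way, with 422, 365, 583 and 452 CPM in basal and 894, 978, 1025 and 799.9 CPM in luminal libraries (log2 fold change -1.03, SE 0.18, adjusted p = 0.00249), and its relative Sox10 was not called (log2 fold change 0.23, SE 0.22, adjusted p = 0.404).

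Of genes with a mean log2 CPM above 5 and no overlap between the cell types, the 12 that fell furthest in basal cells were Kit, Slc5a8, Acacb, Cldn4, Nectin4, Vtcn1, Cldn3, Ocln, Ehf, Slc34a2, Pdk4 and Cldn7. Kit, the stem cell factor receptor, had 6.09, 33.3, 23.7 and 4.47 CPM in basal and 88.5, 296, 289 and 50.0 CPM in luminal libraries (log2 fold change -3.52, SE 0.17, adjusted p = 5.27e-06). Its level followed the pair, with the second Cdkn1b+/+ and the first Cdkn1b-/- pair high in both cell types, and the pair differences ran from -3.84 to -3.15. Slc5a8, a sodium-coupled transporter of short fatty acids, was lower, at -3.49 (SE 0.24), Slc34a2, a phosphate transporter, at -3.32 (SE 0.22), and Nectin4, an adhesion molecule, at -3.43 (SE 0.18). Vtcn1, a B7-family inhibitor of T cells, differed by -3.42 (SE 0.19), and Pdk4, a kinase that shuts off pyruvate dehydrogenase, by -3.32 (SE 0.22). Adjusted p-values of these 6 genes ran from 5.27e-06 to 1.97e-05.

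Tight junctions, the seal of the luminal layer, supplied 4 of the 12 most luminal genes. Of 19 tested genes of this list, 14 were lower in basal cells and 3 were higher, with a median of -2.42. Cldn4, a sealing claudin, had 521, 2539.7, 2558 and 1693 CPM in basal and 9653, 28843, 24048 and 12853 CPM in luminal libraries (log2 fold change -3.47, SE 0.33, adjusted p = 0.000105). Cldn3 (log2 fold change -3.37, SE 0.28, adjusted p = 4.91e-05) and Cldn7 (log2 fold change -3.29, SE 0.27, adjusted p = 4.57e-05) fell to a similar degree. Ocln, occludin, had 16.8, 36.3, 31.6 and 15.8 CPM against 192, 362, 308 and 159 CPM (log2 fold change -3.36, SE 0.14, adjusted p = 3.31e-06), and its pair differences were -3.51, -3.31, -3.28 and -3.32. That is a spread of 0.10 (SD of 4 pairs), against a median SD of 0.40 over all called genes. Crb3, which sets up the apical domain, was lower as well (log2 fold change -3.03, SE 0.24, adjusted p = 3.74e-05).

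The tight junction genes on the basal side included junctional adhesion molecules. Jam3, one of them, had 296, 249, 202 and 194 CPM in basal and 4.33, 3.94, 4.02 and 1.70 CPM in luminal libraries (log2 fold change 6.12, SE 0.24, adjusted p = 2.67e-06). Jam2, which binds Jam3, was higher by 1.64 (SE 0.25, adjusted p = 0.00124). Tjp1, the ZO-1 scaffold, was not called (log2 fold change -0.17, SE 0.17, adjusted p = 0.454).

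Of 16 tested luminal keratin and surface genes, 13 were lower in basal cells and none was higher (median -1.92). Krt18 had 280.2, 533, 559.6 and 814 CPM in basal and 3296, 4075, 3201 and 3462 CPM in luminal libraries (log2 fold change -2.77, SE 0.29, adjusted p = 0.000167). Krt8, its partner in simple epithelia, had 2499, 3492, 3386 and 4232 CPM against 7736, 13514, 8952 and 6493 CPM (log2 fold change -1.40, SE 0.29, adjusted p = 0.0057). The cell types did not overlap in either gene, and basal libraries kept 37.1% of the luminal level of Krt8 and 15.6% of that of Krt18. Muc1, the mucin of the apical surface, had 22.7 to 36.2 CPM in basal and 204 to 304 CPM in luminal libraries (log2 fold change -3.10, SE 0.21, adjusted p = 1.81e-05). Lcn2, an iron-carrier protein of inflamed and involuting gland, ranged over 19.7 to 1204 CPM among basal and 53.9 to 4787 CPM among luminal libraries, yet its pair differences were -1.45, -2.47, -1.99 and -1.28 (log2 fold change -1.80, SE 0.25, adjusted p = 0.000733). Cdh1, E-cadherin, was not called (log2 fold change -0.50, SE 0.26, adjusted p = 0.149), nor was Cd9 (log2 fold change 0.25, SE 0.22, adjusted p = 0.388).

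Transcription factors of the luminal lineage were mostly lower in basal cells. Of 19 tested, 13 were lower in basal cells and 2 were higher, with a median of -1.40. Elf5, the Ets factor of the alveolar lineage, had 6.36, 8.32, 16.7 and 11.5 CPM in basal and 102, 83.4, 98.7 and 79.1 CPM in luminal libraries (log2 fold change -3.16, SE 0.25, adjusted p = 4.48e-05). Ehf (log2 fold change -3.35, SE 0.19, adjusted p = 9.11e-06), Elf3 (log2 fold change -3.19, SE 0.20, adjusted p = 1.52e-05) and Spdef (log2 fold change -2.84, SE 0.22, adjusted p = 4.07e-05), other epithelial Ets factors, were lower too. Foxa1, the pioneer factor of hormone-sensing cells, had 3.44, 5.15, 1.77 and 2.19 CPM against 22.2, 27.3, 8.95 and 23.9 CPM (log2 fold change -2.71, SE 0.24, adjusted p = 7.05e-05). Gata3, a master gene of the luminal lineage, showed no called difference, at 98.3, 115, 124 and 73.1 CPM in basal and 107, 141, 104 and 89.7 CPM in luminal libraries (log2 fold change -0.12, SE 0.15, adjusted p = 0.542). Tfap2c (log2 fold change 1.72, SE 0.21, adjusted p = 0.000376) and Cebpb (log2 fold change 0.92, SE 0.20, adjusted p = 0.00709) were higher in basal cells. Stat5a, the mediator of prolactin signals, had 29.0, 25.9, 41.2 and 44.2 CPM in basal and 167, 86.3, 142 and 139 CPM in luminal libraries (log2 fold change -1.92, SE 0.18, adjusted p = 0.000101).

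Among hormone receptors and their mediators, 6 of 12 tested were lower in basal cells and 2 were higher (median -0.87). Esr1, the estrogen receptor gene, had 0.917, 1.48, 0.484 and 0.978 CPM in basal and 6.90, 8.61, 3.4 and 10.1 CPM in luminal libraries (log2 fold change -2.90, SE 0.28, adjusted p = 0.000111). Pgr, the progesterone receptor gene, had 5.67, 5.26, 4.15 and 4.94 CPM against 16.7, 15.1, 6.17 and 30.2 CPM (log2 fold change -1.57, SE 0.32, adjusted p = 0.00472). Prlr, the prolactin receptor gene, had 3.64, 6.74, 2.70 and 3.49 CPM against 28.1, 38.8, 18.6 and 45.7 CPM (log2 fold change -2.98, SE 0.23, adjusted p = 3.46e-05). All 3 were lowest among luminal libraries in the first Cdkn1b-/- library. Receptors of the growth hormone axis stood on the basal side: Ghr, the growth hormone receptor, had 58.5, 66.5, 59.2 and 64.6 CPM against 6.38, 32.4, 17.7 and 4.57 CPM (log2 fold change 2.42, SE 0.45, adjusted p = 0.00318), and Igf1r was higher by 0.74 (SE 0.14, adjusted p = 0.00418).

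Milk genes took a sizeable part of the counts of the luminal libraries and were present in the basal ones as well. All 13 tested milk and alveolar genes were lower in basal cells, with a median of -2.66. Their CPM summed to 99007, 62052, 153980 and 185500 in luminal and to 9667, 7852, 33164 and 37577 in basal libraries. Each basal library thus held 9.76%, 12.7%, 21.5% and 20.3% of its partner's milk RNA, beside 11.4%, 11.6%, 13.7% and 17.5% for the summed tight junction genes. The basal libraries with more milk RNA were those whose partner had more. The part that milk RNA from luminal cells has in the basal values was not tested.

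Caseins are the main milk proteins, and some of them varied more between libraries of a cell type than between the cell types. Csn2, beta-casein, had 2032, 177, 11063 and 21470 CPM in basal and 19403, 1496, 42625 and 108830 CPM in luminal libraries, and the groups overlapped. Within the pairs the log2 differences were -3.25, -3.08, -1.95 and -2.34, all negative (log2 fold change -2.66, SE 0.37, adjusted p = 0.000773), but with DESeq2 in place of edgeR its adjusted p was 0.107. Csn1s2a, an alpha-S2 casein, had 142, 2.88, 481 and 469.6 CPM against 1278, 17.2, 1189 and 2069 CPM (log2 fold change -2.29, SE 0.31, adjusted p = 0.000655), with both libraries of the second Cdkn1b+/+ pair far below all others. Csn3, kappa-casein, had 1692, 2127, 7822 and 3928 CPM against 27853, 24524, 52099 and 24577 CPM (log2 fold change -3.24, SE 0.37, adjusted p = 0.000289). Wap, whey acidic protein, had 16.5, 23.0, 493 and 439 CPM against 158, 236, 1519 and 1656 CPM (log2 fold change -2.53, SE 0.34, adjusted p = 0.000634) and was higher in both Cdkn1b-/- pairs than in both Cdkn1b+/+ pairs, in each cell type.

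Some other genes of milk secretion varied less than Csn2. The milk mucin gene Glycam1 did not, with 387, 17.3, 1402 and 3956 CPM in basal and 2088, 115, 3387.5 and 15251 CPM in luminal libraries. Lalba, the regulator of lactose synthesis, had 560, 1109.7, 2504 and 394 CPM in basal and 8057, 10406, 15804 and 2764 CPM in luminal libraries (log2 fold change -3.13, SE 0.30, adjusted p = 0.000103). Btn1a1, which coats secreted fat droplets, had 29.6, 42.8, 50.5 and 35.4 CPM against 385, 424, 428 and 239.8 CPM (log2 fold change -3.21, SE 0.20, adjusted p = 1.34e-05), and its groups did not overlap. Xdh, its partner in droplet release, was lower, at -2.84 (SE 0.22, adjusted p = 3.49e-05). Mfge8, a milk fat globule protein that many cells make, had the smallest change of the list at -1.94 (SE 0.27, adjusted p = 0.000809).

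**Figure D4:**
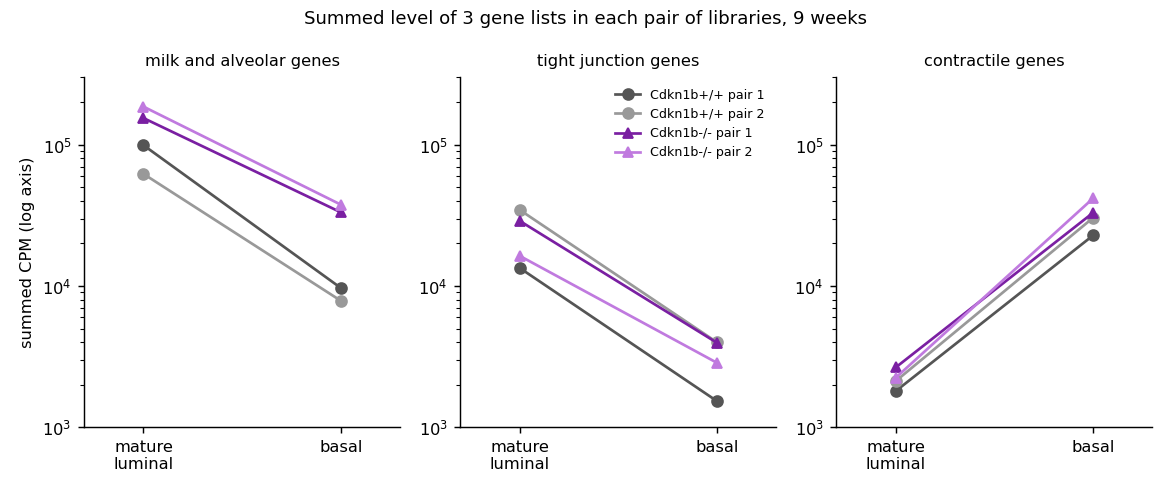
Summed CPM on a log axis of the milk and alveolar, tight junction and contractile genes in the luminal and basal library of each of the 4 pairs, with 1 line for each pair. All lines fall for milk and tight junction genes and rise for contractile genes, and the milk lines of the Cdkn1b-/- pairs lie above those of the Cdkn1b+/+ pairs.

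Caseins are classical targets of Stat5, which binds the motif TTCNNNGAA, and the promoters of milk genes were searched for it because these genes moved together and Stat5a and Stat5b were lower in basal cells (Stat5b -1.23, SE 0.13, adjusted p = 0.000149). In the 250 bases before the start, on both strands, the motif occurred in 4 of 14 milk genes (28.6%), all of which were matched in the RefSeq table, in 8.19% of all 27457 genes of the table, and in 6.18% and 5.82% of the matched genes higher and lower in basal cells. It also occurred in 1 of the 16 matched contractile genes (6.25%), Cnn1, which was higher in basal cells (log2 fold change 6.81). A match says that the letters are there, not that Stat5 binds. The 4 promoters of milk genes are shown with the motif in capitals, in GRCr8 coordinates, each reading toward the gene's start. They are Csn1s1 at chr14:20638850-20639099 on the minus strand with the motif beginning 100 bases before the start, Csn1s2a at chr14:20574472-20574721 on the minus strand at 102 bases, Csn2 at chr14:20601574-20601823 on the plus strand at 97 bases, and Glycam1, which encodes a milk mucin, at chr7:136561300-136561549 on the minus strand at 175 bases.
Csn1s1: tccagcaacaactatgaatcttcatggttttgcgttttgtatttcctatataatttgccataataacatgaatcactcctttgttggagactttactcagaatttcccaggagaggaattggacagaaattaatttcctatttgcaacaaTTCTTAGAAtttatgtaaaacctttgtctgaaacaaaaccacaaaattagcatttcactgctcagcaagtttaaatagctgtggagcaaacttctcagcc
Csn1s2a: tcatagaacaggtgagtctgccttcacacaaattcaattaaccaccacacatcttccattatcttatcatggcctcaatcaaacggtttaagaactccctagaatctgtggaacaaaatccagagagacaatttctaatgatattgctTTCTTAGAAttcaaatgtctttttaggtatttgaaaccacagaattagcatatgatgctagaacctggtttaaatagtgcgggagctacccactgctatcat
Csn2: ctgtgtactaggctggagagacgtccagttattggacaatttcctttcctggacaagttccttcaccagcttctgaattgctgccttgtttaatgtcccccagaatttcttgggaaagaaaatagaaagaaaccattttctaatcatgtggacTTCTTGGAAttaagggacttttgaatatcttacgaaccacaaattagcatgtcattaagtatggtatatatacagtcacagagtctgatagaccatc
Glycam1: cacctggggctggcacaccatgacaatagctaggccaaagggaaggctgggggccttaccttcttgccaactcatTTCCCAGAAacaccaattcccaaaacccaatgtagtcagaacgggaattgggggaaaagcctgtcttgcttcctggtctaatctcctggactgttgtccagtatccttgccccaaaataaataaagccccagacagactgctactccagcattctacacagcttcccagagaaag
The motif lies within 97 to 102 bases of the start in the 3 caseins. Csn1s1 and Csn1s2a have the same letters, TTCTTAGAA, and Csn2 has TTCTTGGAA. The log2 fold changes of these 4 genes were -3.04, -2.29, -2.66 and -2.09, and Wap, Lalba and Csn3, which have no such letters in this window, had -2.53, -3.13 and -3.24.

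The ErbB system was divided between the layers, with 5 of 12 tested genes higher and 5 lower in basal cells, beside 23.5% and 21.5% of all genes. The neuregulins, ligands of Erbb3 and Erbb4, were basal: Nrg1 had 461, 360.3, 397 and 267 CPM in basal and 13.9, 19.2, 24.8 and 5.82 CPM in luminal libraries (log2 fold change 4.69, SE 0.30, adjusted p = 1.52e-05), and Nrg2 had 61.4, 61.3, 29.6 and 15.5 CPM against 1.49, 3.16, 0.622 and 0.538 CPM (log2 fold change 4.96, SE 0.26, adjusted p = 7.8e-06). Their receptors were luminal: Erbb3 had 48.5, 77.6, 59.5 and 40.7 CPM against 123, 185, 227 and 113 CPM (log2 fold change -1.50, SE 0.16, adjusted p = 0.000182), and Erbb4 had 0.360, 0.719, 0.322 and 0.233 CPM against 4.76, 4.76, 1.24 and 8.83 CPM (log2 fold change -3.37, SE 0.54, adjusted p = 0.00149). Erbb2, the shared partner without a ligand, was also luminal (log2 fold change -1.91, SE 0.17, adjusted p = 7.44e-05). Egfr, the receptor for the EGF-like ligands, was higher in basal cells (log2 fold change 1.31, SE 0.22, adjusted p = 0.00202), as were its ligand genes Tgfa (log2 fold change 1.34, SE 0.31, adjusted p = 0.00946) and Epgn (log2 fold change 2.85, SE 0.34, adjusted p = 0.000358). Hbegf, another ligand of Egfr, was luminal, at 249 to 649 CPM in basal and 1231 to 3007 CPM in luminal libraries (log2 fold change -2.18, SE 0.20, adjusted p = 8.38e-05). Areg, the Egfr ligand induced by estrogen, was not called and varied over 30.5 to 116 CPM in basal and 20.5 to 129 CPM in luminal libraries (log2 fold change 0.07, SE 0.56, adjusted p = 0.93). Its pair differences were 0.85, -0.34, 1.70 and -2.08. In the 4-week libraries described below it was luminal (log2 fold change -2.93, SE 0.22, adjusted p = 1.31e-06, edgeR). The 9-week minus 4-week value was 3.04 (SE 0.61, adjusted p = 0.00515, edgeR).

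Of 14 tested Notch genes, 4 were higher and 3 were lower in basal cells, near the 23.5% and 21.5% of all genes. Dll1, a ligand, had 96.1, 155, 131 and 117 CPM in basal and 2.88, 3.55, 3.06 and 2.91 CPM in luminal libraries (log2 fold change 5.31, SE 0.16, adjusted p = 2.16e-06). Jag1, another ligand, had 50.6, 40.2, 86.3 and 35.1 CPM against 10.7, 15.1, 6.22 and 6.50 CPM (log2 fold change 2.45, SE 0.35, adjusted p = 0.000862). Lfng, the Fringe enzyme that alters receptor choice, was higher in basal cells too (log2 fold change 2.61, SE 0.34, adjusted p = 0.000521). The target Nrarp was the other higher gene (log2 fold change 1.29, SE 0.41, adjusted p = 0.0349), with pair differences of -0.33, 1.05, 2.27 and 2.08. Its call was lost without any 1 library of the second Cdkn1b+/+ pair or of either Cdkn1b-/- pair (adjusted p from 0.0854 to 0.135, edgeR). With the pair as a block, leaving out 1 library also takes its partner out of the comparison. The receptor genes Notch1 (log2 fold change -1.08, SE 0.22, adjusted p = 0.00455) and Notch4 (log2 fold change -1.31, SE 0.18, adjusted p = 0.000682) and the target Hes1 (log2 fold change -1.31, SE 0.16, adjusted p = 0.000327) were lower in basal cells, and Notch2 was not called (log2 fold change 0.05, SE 0.16, adjusted p = 0.819).

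Wnt genes were mostly on the basal side: 16 of 22 tested genes were higher in basal cells and 4 were lower, with a median of 1.46. Among ligands, Wnt10a had 29.3, 78.4, 116 and 181 CPM in basal and 0.350, 0.952, 1.96 and 0.896 CPM in luminal libraries (log2 fold change 6.55, SE 0.32, adjusted p = 5.23e-06), and Wnt6 had 44.9, 35.1, 28.4 and 36.4 CPM against 1.01, 0.562, 0.144 and 0.358 CPM (log2 fold change 6.20, SE 0.32, adjusted p = 7.5e-06). The cell types did not overlap in either ligand, and Wnt10a ranged from 29.3 to 181 CPM within basal cells. Wnt11 was higher as well (log2 fold change 2.79, SE 0.28, adjusted p = 0.000129). The ligands on the luminal side were Wnt4, the progesterone-induced one (log2 fold change -1.17, SE 0.26, adjusted p = 0.00708), Wnt5b (log2 fold change -1.91, SE 0.27, adjusted p = 0.000789) and Wnt7b (log2 fold change -2.09, SE 0.28, adjusted p = 0.000604). Of the receptors, Fzd1 (log2 fold change 3.85, SE 0.16, adjusted p = 2.84e-06) and Fzd2 (log2 fold change 3.87, SE 0.32, adjusted p = 4.91e-05) were higher in basal cells and Fzd6 was lower (log2 fold change -0.84, SE 0.16, adjusted p = 0.00364). The secreted modulator Dkk3 had 333, 892, 582 and 425 CPM in basal and 5.68, 15.6, 7.27 and 4.93 CPM in luminal libraries (log2 fold change 6.11, SE 0.21, adjusted p = 2.29e-06). Wif1, a secreted inhibitor, had 79.0, 41.1, 9.47 and 5.73 CPM against 1.09, 1.12, 0.861 and 0.806 CPM (log2 fold change 4.54, SE 0.55, adjusted p = 0.000362), with more in the Cdkn1b+/+ than in the Cdkn1b-/- basal libraries. The target genes Axin2 (log2 fold change 1.03, SE 0.31, adjusted p = 0.029) and Lef1 (log2 fold change 3.19, SE 0.33, adjusted p = 0.000151) were low but higher in basal cells. The call of Axin2 was lost without any 1 library of either Cdkn1b+/+ pair or of the first Cdkn1b-/- pair (adjusted p from 0.0805 to 0.117, edgeR). Procr, a target and a proposed mark of basal stem cells, was higher (log2 fold change 1.91, SE 0.48, adjusted p = 0.0136).

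Of 23 tested genes of FGF, TGF-beta and BMP signalling, 13 were higher in basal cells and 6 were lower (median 1.18). Fst, the follistatin that traps activins, had 133, 201, 321 and 227 CPM in basal and 2.23, 4.67, 17.6 and 1.66 CPM in luminal libraries (log2 fold change 5.57, SE 0.46, adjusted p = 4.91e-05), while Inhbb, an activin subunit, was luminal (log2 fold change -2.88, SE 0.28, adjusted p = 0.000111). Bmp7 (log2 fold change 3.56, SE 0.32, adjusted p = 8.43e-05), Fgf1 (log2 fold change 4.23, SE 0.36, adjusted p = 6.13e-05) and the FGF receptor Fgfr2 (log2 fold change 3.32, SE 0.39, adjusted p = 0.000297) were higher in basal cells. Fgfr2 varied over 7.94 to 63.5 CPM among luminal libraries. Tgfb2 (log2 fold change -1.31, SE 0.14, adjusted p = 0.000209) and Tgfb3 (log2 fold change -2.28, SE 0.19, adjusted p = 5.16e-05) were lower in basal cells, whereas Tgfb1 was higher (log2 fold change 0.97, SE 0.25, adjusted p = 0.0147). The Id genes differed in direction, with Id2 lower (log2 fold change -2.58, SE 0.24, adjusted p = 8.75e-05) and Id3 higher (log2 fold change 1.75, SE 0.24, adjusted p = 0.000691) in basal cells. Among 11 integrins and adhesion genes, 7 were higher and Cd24 alone was lower, with Itgb6, an activator of TGF-beta, at 161, 177, 172 and 169.7 CPM in basal and 1.97, 2.29, 4.50 and 2.33 CPM in luminal libraries (log2 fold change 6.00, SE 0.24, adjusted p = 2.84e-06).

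At the median, the cell cycle lists differed less than the contractile, basal keratin, milk and tight junction lists, though single genes differed strongly. Of 13 tested CDK inhibitors, cyclins and kinases of G1, 6 were higher in basal cells and none was lower (median 0.57). Ccnd2, cyclin D2, had 145, 41.4, 42.2 and 51.7 CPM in basal and 3.71, 3.16, 1.82 and 1.61 CPM in luminal libraries (log2 fold change 4.63, SE 0.28, adjusted p = 1.35e-05), while Ccnd1, cyclin D1, was not called (log2 fold change -0.07, SE 0.17, adjusted p = 0.765). Cdkn1c, the p57 relative of p27, had 30.6, 42.3, 49.7 and 90.1 CPM against 9.05, 6.83, 6.60 and 15.3 CPM (log2 fold change 2.46, SE 0.21, adjusted p = 5.95e-05). Of 19 S phase genes, 2 were higher and 2 were lower, beside 23.5% and 21.5% of all genes, with a median of 0.02. In some of these genes the first Cdkn1b+/+ pair stood above the others in both cell types: Mcm3, a helicase subunit, had 112, 8.10, 24.4 and 25.9 CPM in basal and 45.8, 4.11, 14.6 and 34.0 CPM in luminal libraries (log2 fold change 0.65, SE 0.27, adjusted p = 0.0796).

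Of 21 tested G2 and M phase genes, 9 were higher in basal cells and none was lower (median 0.99). Their levels were low: Mki67, the Ki67 antigen, had 21.3, 2.72, 8.10 and 10.1 CPM in basal and 5.72, 2.60, 3.11 and 6.23 CPM in luminal libraries (log2 fold change 1.03, SE 0.32, adjusted p = 0.0307), and no gene of the list had groups that did not overlap. The summed level was 235 CPM in the first Cdkn1b+/+ basal library and 49.2 to 142 CPM in the other 3, beside 32.8 to 114 CPM in luminal libraries. The count of 9 fell to 4 without that library, to 4 without the first Cdkn1b-/- basal or luminal library, to 5 without the first Cdkn1b+/+ luminal library, to 5 without the block and to 1 with genotype and number as additive terms, and it was 14 in a fit of all 16 libraries of 9 weeks.

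Fatty acid synthesis, which feeds milk fat, was on the luminal side. Of 19 tested genes of fatty acid and sterol synthesis, 10 were lower and 3 were higher in basal cells (median -0.98). Fasn, fatty acid synthase, had 178, 152, 176 and 82.0 CPM in basal and 737, 1044, 1162 and 409 CPM in luminal libraries (log2 fold change -2.47, SE 0.19, adjusted p = 4.01e-05). Acacb (log2 fold change -3.47, SE 0.22, adjusted p = 1.57e-05), Thrsp, the Spot 14 regulator of milk fat (log2 fold change -2.85, SE 0.29, adjusted p = 0.000155), the master regulator Srebf1 (log2 fold change -2.45, SE 0.17, adjusted p = 2.52e-05) and the desaturase gene Fads1 (log2 fold change -2.03, SE 0.19, adjusted p = 0.000101) were lower in basal cells. The 3 higher genes included Idi1 (log2 fold change 1.45, SE 0.35, adjusted p = 0.0114) and Sqle (log2 fold change 1.42, SE 0.45, adjusted p = 0.0333), both of sterol synthesis. The sterol genes Hmgcs1, Fdps and Lss were not called. Of the 3 higher genes, Sqle and Idi1 were highest in the first Cdkn1b+/+ basal library, at 50.8 and 169 CPM, against at most 18.5 and 68.9 CPM in the other 3, and 1 of the 3 was called without that library, without its luminal partner or without the first Cdkn1b-/- luminal library.

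Immediate early and heat shock genes, which also respond to handling, were expressed in both gates. Of 18 immediate early genes, 4 were higher and 6 were lower in basal cells (median -0.25), beside 23.5% and 21.5% of all genes. Fos was at 3927 to 5924 CPM in basal and 3919 to 7563 CPM in luminal libraries and was not called (log2 fold change -0.23, SE 0.28, adjusted p = 0.542), while Jun was lower (log2 fold change -1.50, SE 0.26, adjusted p = 0.00215) and Nr4a1 higher (log2 fold change 2.41, SE 0.18, adjusted p = 2.92e-05). Of 15 heat shock genes, 8 were lower and 3 were higher (median -1.19). Their sum was 10813 to 15148 CPM in basal and 13983 to 34279 CPM in luminal libraries, and it was highest in the Cdkn1b+/+ luminal libraries. Hsph1 had 242, 280.2, 148 and 181 CPM in basal and 1350.5, 1696, 417 and 529.6 CPM in luminal libraries (log2 fold change -2.03, SE 0.25, adjusted p = 0.000398). Hspa1a was lower in basal cells (log2 fold change -1.77, SE 0.42, adjusted p = 0.0104), as was its near-identical copy Hspa1b, with which it may share reads. The small heat shock protein gene Hspb8 (log2 fold change 1.55, SE 0.16, adjusted p = 0.000161) and its partner Bag3 (log2 fold change 1.24, SE 0.23, adjusted p = 0.00344) were higher in basal cells. The part that time in dissociation or sorting has in these genes was not tested.

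Markers of other cell types were measured because either gate could hold such cells. Of 9 fibroblast genes, 7 were higher in basal cells (median 1.42), with a sum of 521 to 3145 CPM in basal and 113 to 906 CPM in luminal libraries, and no gene had groups that did not overlap. Col1a1 had 126, 852, 882 and 615 CPM in basal and 114, 289.5, 254 and 34.6 CPM in luminal libraries (log2 fold change 1.86, SE 0.57, adjusted p = 0.0304). The count of 7 fell to 1 without the block, to 0 with genotype and number as additive terms, to 2 without the first Cdkn1b-/- basal or the second Cdkn1b+/+ luminal library, and to 3 without the second Cdkn1b+/+ basal or the first Cdkn1b-/- luminal library. Of 10 pericyte and vascular muscle genes, 6 were higher in basal cells (median 1.74), with a sum of 71.4 to 328 CPM in basal and 71.2 to 184 CPM in luminal libraries. Pdgfrb had 10.7, 23.5, 52.6 and 47.4 CPM in basal and 6.38, 10.5, 10.1 and 2.69 CPM in luminal libraries (log2 fold change 2.04, SE 0.51, adjusted p = 0.0132), and the count of 6 fell to 0 without the first Cdkn1b-/- luminal library, to 1 and 2 without the first and the second Cdkn1b-/- basal library, and to 3 without the second Cdkn1b-/- luminal or either library of the second Cdkn1b+/+ pair. The summed contractile genes were at 22834 to 41760 CPM in basal libraries, and the part of pericytes and fibroblasts in the basal values was not tested.

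Of 12 endothelial genes, Eng was higher (log2 fold change 2.13, SE 0.26, adjusted p = 0.000358) and Flt1 lower (log2 fold change -1.47, SE 0.17, adjusted p = 0.000302) in basal cells, and the sum was 252 to 797 CPM in basal and 187 to 361 CPM in luminal libraries. Without the first Cdkn1b+/+ basal library or its luminal partner, 5 endothelial genes were higher. Of 8 Schwann cell genes, 5 were higher and 2 were lower, and the count of 5 was 2 without the block and 3 without any 1 library of the second Cdkn1b+/+ pair or of either Cdkn1b-/- pair. The 5 included Ngfr (log2 fold change 3.48, SE 0.32, adjusted p = 8.38e-05), which basal cells also make, while Mbp, a myelin protein, was lower (log2 fold change -1.80, SE 0.23, adjusted p = 0.000462). Of 4 adipocyte genes 2 were lower, Cidec (log2 fold change -1.51, SE 0.25, adjusted p = 0.00193) and Lipe (log2 fold change -1.96, SE 0.14, adjusted p = 2.44e-05). Neither of the 2 tested lymphoid genes was called, and of 14 myeloid genes only Cd14, which luminal progenitors also make, was lower (log2 fold change -2.72, SE 0.24, adjusted p = 6.36e-05).

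The difference between the cell types was next compared between the genotypes. No gene passed the test of the interaction (0% of 11687 genes), with a lowest adjusted p of 0.158, although 1152 genes had an unadjusted p under 0.05. In simulated data with 200 genes changed by 2 on the log2 scale and no differences between pairs, edgeR's test of this term recovered 71.5% of them. It also called 12 unchanged genes. DESeq2 called 171 genes, and edgeR called 77 without the filter on low counts, 182 without the first Cdkn1b-/- basal library and 171 without the first Cdkn1b-/- luminal library. By list, the medians within Cdkn1b+/+ and within Cdkn1b-/- pairs were close for contractile genes (4.69 and 4.43), tight junction genes (-2.40 and -2.44) and basal keratins (5.44 and 5.19), and further apart for milk genes (-3.17 and -2.14), heat shock genes (-1.61 and -0.84), fibroblast genes (0.63 and 2.34) and pericyte genes (0.50 and 3.28). No gene of these lists passed the test of that difference.

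Basal and luminal cells of other rats in the series offered a measure that the 9-week libraries did not enter. At 4 weeks, 10 libraries make 5 pairs, 3 Cdkn1b+/+ and 2 Cdkn1b-/-, with basal cells gated in the same way and luminal cells gated as Cd24+ Cd29LOW with no mention of Cd49b or PNA. There 5322 of 11259 genes were called (47.3%). Of the genes higher in basal cells at 9 weeks, 2671 were tested at 4 weeks, 2378 were on the same side (89%), 1832 were called on it, and 62 were called on the opposite side. Of the genes lower at 9 weeks, 2383 were tested, 2160 were on the same side (90.6%), 1528 were called on it, and 31 were called on the opposite one.

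In the E2 experiment, 12 libraries make 6 pairs, each a basal and a luminal library, from ACI and BN females with or without estradiol (E2). There 280 of 10446 genes were called (2.68%), a count that was 2271 with DESeq2 and 27 to 599 when any 1 pair was left out. In simulated data with 200 genes changed by 2 on the log2 scale, this fit recovered 2.5% of them. Its count therefore cannot say how many genes differ. Of 9-week genes also tested in the E2 experiment, 4006 of 4744 (84.4%) were on the same side. Of those called in both, 172 were higher and 92 were lower on the same side, and none was opposite. Of 28 lists, 25 had a median on the 9-week side at 4 weeks and 21 in the E2 experiment, where those on the other side were the ErbB, Notch, S phase, G2 and M phase, heat shock, adipocyte and myeloid lists. At 4 weeks those on the other side were the S phase, endothelial and myeloid lists. Contractile genes had a median of 5.92 at 4 weeks and 4.38 in the E2 experiment, basal keratins 3.50 and 1.92, tight junction genes -2.61 and -5.72, and milk genes -5.65 and -5.17.

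**Figure D5:**
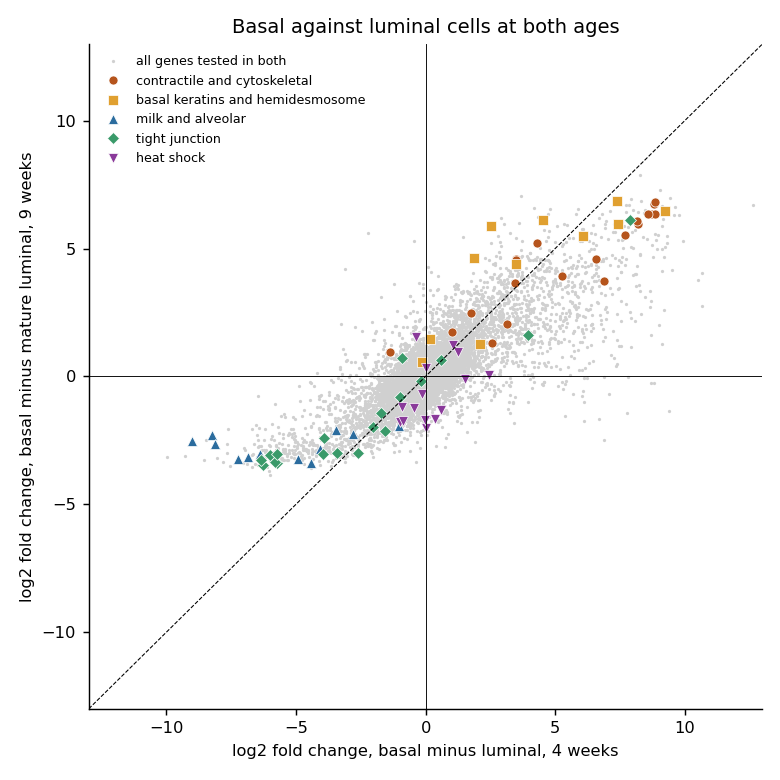
Log2 fold change (basal minus luminal) at 9 weeks against that at 4 weeks for genes tested in both, with 5 gene lists in color and a dashed line of equal values. Tight junction and milk genes on the lower left lie mostly above the line, where falls at 9 weeks are smaller (milk medians -2.66 and -5.65), and heat shock genes lie mostly below it.

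The size of the difference, unlike its side, was often not the same at both ages. In 1 fit of both, 1919 of 12236 genes (15.7%) differed between 9 and 4 weeks, 917 with more basal and 1002 with more luminal values at 9 weeks. Age and the luminal gate cannot be told apart in this comparison, and the labels do not give the backcross generation of either age. Among genes of mean log2 CPM above 3, those that moved most toward basal included Wap (-9.02 at 4 weeks, -2.53 at 9 weeks) and Csn1s2a (-8.26 and -2.29), and Pkp1, a desmosomal plaque protein, which was not called at 4 weeks (-0.44, adjusted p = 0.226) and was higher in basal cells at 9 weeks (5.28). Rasal1, a Ras GTPase activator (-9.96 and -3.14), and the glucose transporter Slc5a1 (-9.27 and -3.12) were luminal at both ages. Those that moved most toward luminal included Ncam1 (7.55 and 1.19, the latter not called) and Cdh19 (8.32 and 2.43), both found in Schwann cells, the potassium channel gene Kcnma1 (8.64 and 2.71), Tmem59l (8.72 and 2.93) and Dsc3 (12.65 and 6.72). Dsc3 was among the most basal genes at both ages. The level limit of 3 was taken over the libraries of both ages together. At 9 weeks Cdh19 was low, at 0.688, 0.568, 1.73 and 1.96 CPM in basal and 0.612, 0.0865, 0.0478 and 0.224 CPM in luminal libraries. At 4 weeks Dsc3 was not among the genes of mean log2 CPM above 5, whose highest log2 fold change was 9.79.

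Lists shifted between the ages too. Fibroblast genes had a median of 4.08 at 4 weeks and 1.42 at 9 weeks, with 8 genes past the test of the difference, and Schwann cell genes had 2.07 and 1.17. Heat shock genes had -0.00208 and -1.19, with 6 past that test. Milk genes, at -5.65 and -2.66, had 7 past it, and contractile genes, at 5.92 and 4.57, had 14. Srf was on opposite sides, at -1.38 (adjusted p = 0.000121) at 4 weeks and 0.95 at 9 weeks.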

How the data were processed

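RNA of sorted rat mammary cells had been made into poly(A) libraries with a low-input kit that does not keep strand and read as single ends of 75 bases. The authors aligned the reads with STAR 2.5.1b to rn6 and counted them on RefSeq genes with htseq-count, and the raw counts per gene they deposited were used as they are. Reads that overlap several genes or align in several places are in no gene's count, which lowers near-identical copies. Each file's tally of reads assigned to no gene, 58.5% to 70.9% of its total, was kept out of library sizes.

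Genes were filtered with filterByExpr by cell type, scaled with TMM and tested with edgeR 4.0.16 (R 4.3.3, limma 3.58.1), with the pair and the cell type as terms and Benjamini-Hochberg adjustment at 0.05. Fitted fold changes and log2 CPM used edgeR's default shrinkage, with a prior count of 2 for log2 CPM. The study states no test for cell types. DESeq2 1.42.0 was an alternative, besides other filters and scalings, a fold limit, no block, genotype and number as additive terms, each genotype alone, all 16 libraries of 9 weeks and leaving out each library. The 4-week and E2 libraries, with 14674040 to 23045345 and 13659389 to 25280421 reads on genes, were fitted apart with the rat or rats named in their labels as the block. The scripts were tested on simulated data, in which 200 genes were changed by 2 on the log2 scale. Of these genes edgeR recovered 96% in the 9-week fit, 92% in the 4-week fit and 2.5% in the E2 fit. It recovered 71.5% in the test of the interaction and 82.5% in the comparison of ages. Of unchanged genes in the 9-week fit, edgeR called 15 and DESeq2 called 44. Apart from the change, a simulated gene had 1 mean level in all libraries, so differences in level between pairs were not simulated.

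The pairing was checked by correlating deviations from the mean of cell type and genotype over genes: r was 0.54 in the Cdkn1b+/+ and 0.46 in the Cdkn1b-/- pairs, and both pairs of a genotype share 1 value because there are 2 libraries a group. Across genotypes, same-numbered libraries had -0.03 in basal and -0.33 in luminal cells, so numbers were paired within a genotype. Replicates were no copies of each other, as their counts differed by a chi-square per degree of freedom of 125 to 402. Depth is high and alike, and precision is limited by 4 libraries a cell type.

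Genes were named by rule: Cdkn1b and the genes of the sort, in each direction the 12 called genes of largest fold change, among those without overlap between the cell types whose log2 CPM averaged over 5, members of 28 hand-written gene lists by role, and up to 6 genes per direction of mean log2 CPM above 3 in the comparison of ages. The comparison and the lists were chosen with earlier results of these data known. List genes with no row among the genes tested, Itga2 among them, were not analysed here, and single genes that the rule would name are not reported here. Promoters are RefSeq sequences of rat build GRCr8, matched by symbol and used for letters only. The 8 progenitor libraries of 9 weeks entered only the marker check of the luminal libraries and the fit of all 16 libraries.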

Additional observations from a re-analysis of the deposited data

Results flagged for a closer look

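Of 398 groups of 4 libraries checked among the named genes, 16 held 1 library that stood apart from the other 3 on the scale of log2(CPM + 0.1), and chance gives about 5% of groups. The first Cdkn1b+/+ basal library accounted for 5 of them. In it Snai2 was at 63.3 CPM (28.0 to 31.5 in the other 3 basal libraries) and the squalene epoxidase gene Sqle at 50.8 CPM (16.4 to 18.5), both high, while Cebpb at 904 CPM (1567 to 1703), Lfng at 8.98 CPM (18.8 to 21.1) and Hspb8 at 166 CPM (337 to 368) were low. The second Cdkn1b+/+ basal library was high in Col7a1, at 185 CPM (103 to 104), and low in the mitotic gene Birc5, at 1.02 CPM (4.64 to 5.21). The first Cdkn1b-/- basal library was low in Fzd2, at 12.6 CPM (16.1 to 16.8).

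Among luminal libraries, the first Cdkn1b-/- library was high in Csn3, at 52099 CPM (24524 to 27853), and in Sox10, at 303 CPM (113 to 133), and low in Nr4a1, at 80.6 CPM (159 to 182). The second Cdkn1b-/- library was low in Krt19, at 1705 CPM (2178 to 2222), and in Jam3, at 1.70 CPM (3.94 to 4.33). The second Cdkn1b+/+ library was low in Csn1s2a, at 17.2 CPM (1189 to 2069), and high in Tbx2, at 1.04 CPM (0.262 to 0.287), and the first was high in Fads1, at 607 CPM (336 to 361). No cause of these values was tested.

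The basal minus luminal difference itself differed between 9 and 4 weeks, by edgeR's test of the cell type by age term, in the 10 genes given here. On the log2 scale the 9-week difference lay above the 4-week one by 6.85 for Rasal1, 6.51 for Wap, 6.20 for Slc5a1, 5.91 for Csn1s2a and 5.76 for Pkp1. The 9-week minus 4-week value was -6.35 for Ncam1, -6.00 for Cdh19, -5.91 for Dsc3, -5.89 for Kcnma1 and -5.88 for Tmem59l. The adjusted p-values ran from 7.88e-06 for Pkp1 to 0.00244 for Cdh19, with 8 libraries at 9 weeks and 10 at 4 weeks. Age and the gate of the luminal cells cannot be told apart here.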

How the results depend on the processing

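The count of 5259 genes stayed within 1.5 times under other scalings, filters and tests: 5269 with RLE factors, 5319 without a filter, 4680 with at least 10 counts in every library, 5765 with DESeq2, 6522 with all 16 libraries of 9 weeks, and 4062 to 4791 without each library in turn. Without the pair as a block it was 3951 (2145 higher, 1806 lower), and with genotype and number as additive terms 3918. A fold limit of 1 on the log2 scale left 3311 genes, of which 1444 were lower. The Cdkn1b+/+ libraries alone gave 1279 (870 higher, 409 lower) and the Cdkn1b-/- libraries alone 1892 (1207 and 685), from 4 libraries each. The interaction, at 0 genes, gave 77 without a filter and 171 with DESeq2, and 0 to 182 without each library. The E2 experiment gave 2271 genes with DESeq2 (1237 higher, 1034 lower), and 27 to 599 without each pair in turn (14 to 388 higher, 8 to 211 lower), so that leaving out any 1 pair moved it by over 1.5 times. Without the block the comparison of ages fell to 973 genes (362 more basal and 611 more luminal at 9 weeks), and its other alternatives stayed within 1.5 times. The causes of these changes were not tested beyond the fewer libraries.

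Of 3369 values of 199 named genes under these alternatives, 3089 kept their direction and their side of the threshold, 219 lost the call, 30 gained one and 31 changed sign. Of named called genes, Igf1r, Csn1s2a, Glycam1, Tgfa, Wnt4, Mki67, Sqle, Col1a1, Lcn2, Cdh19 and Tmem59l lost theirs without the block, among others, as did Csn1s2a in the comparison of ages. Without single libraries the call was lost for Des, Procr, Tgfb1, Mki67, Sqle, Col1a1, Pdgfrb, Hspa1a and Cdh19, besides Axin2 and Nrarp, among named genes. Sign changes were confined to 8 uncalled genes near 0. Areg was at -0.144 without the block, -0.0701 with additive terms, -0.0593 with all 16 libraries, -0.629 in Cdkn1b-/- libraries alone and -0.50 to 0.73 without each library in turn. Notch2 was at -0.0319 without the block, -0.0294 with additive terms, -0.0045 in Cdkn1b+/+ and -0.0541 in Cdkn1b-/- libraries alone, and -0.0886 to 0.166 without each library. Lss was at 0.0041 without a filter, 0.138 in Cdkn1b-/- libraries alone and -0.109 to 0.138 without each library. Tjp1 was at 0.0657 in Cdkn1b+/+ libraries alone and ran from -0.285 to 0.0238 without each library. In Cdkn1b-/- libraries alone Ccnd1 was at 0.145, Fos at 0.258, Gata3 at 0.0096 and Tnc at -0.0908, and without each library Ccnd1 ran from -0.208 to 0.0628 and Tnc from -0.0524 to 0.685. By list, counts also moved for hormone receptors (higher, 2 to 1) and ErbB genes (higher, 5 to 3) and Wnt genes (lower, 4 to 2) with additive terms, and for S phase genes (higher, 2 to between 0 and 4).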
